A study of Mus musculus with 7 samples.

Results

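The genes 2610203C22Rik, a long noncoding RNA, and Susd5, a membrane protein with a link and a sushi domain, were examined in RNA-seq of cultured hippocampal neural stem cells (NSCs) with and without deletion of Med23, a subunit of the Mediator complex. They are 2 of the 24346 gene symbols listed. Both were selected on their measured values, because each of them had all 3 Med23 CKO libraries above all 4 control libraries. The difference between the groups is therefore a description, and no test of it is given for either gene.

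Primary NSCs were prepared from the hippocampus of single C57/BL6 mice given as 2-month-old and grown as neurospheres, the floating clusters that NSCs form in culture. Med23 CKO mice carry floxed Med23 alleles with Nestin-CreER, a tamoxifen-inducible recombinase driven in nestin-expressing cells, and controls are littermates that carry floxed Med23 (flox/+ or flox/flox) without the recombinase, labelled as wild type. The 4 control libraries are named by mouse, from WT_116 to WT_220, and the 3 Med23 CKO libraries from KO_117 to KO_218. Tamoxifen (TAM) went to both groups by gavage at 200 mg/kg for 5 days, with 3 to 4 weeks of recovery given. The labels give the age at tamoxifen as 2 months and the study's methods give it as 1 month for the cultures, and the study counts 3 mice per group where 4 control libraries were deposited; none was left out.

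Mediator is a complex that relays signals from sequence-specific transcription factors to RNA polymerase II, so loss of a subunit can change genes in either direction. Long noncoding RNAs are transcripts that are not translated, and some of them lie antisense to coding genes. Link domains bind hyaluronan, a long sugar polymer of the extracellular matrix that surrounds neural stem cells in the brain, and sushi domains are small folded modules found in complement regulators, adhesion molecules and receptors.

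2610203C22Rik lies on chromosome 1 (GRCm38/mm10), from 9560832 to 9631175 on the minus strand in GENCODE M21, which lists 5 transcripts of 3 to 5 exons. RefSeq classes it as a lncRNA. The transcript with the most exons has 5, of 32, 128, 90, 49 and 947 bases, 1246 bases in all. The gene overlaps Adhfe1 and Vxn, both on the opposite strand. Exon 4 lies wholly inside an exon of Adhfe1, and the 49 shared bases are 3.93% of the transcript, while that transcript shares 0 bases with the exons of Vxn. Over all 5 transcripts, 154 of 4910 exonic bases (3.14%) are shared with Adhfe1 and 452 (9.21%) with Vxn. Exons 1 to 4 are shown because reads from the capitals, exon 4, could come from either strand and be counted to either gene.
2610203C22Rik exons 1 to 4: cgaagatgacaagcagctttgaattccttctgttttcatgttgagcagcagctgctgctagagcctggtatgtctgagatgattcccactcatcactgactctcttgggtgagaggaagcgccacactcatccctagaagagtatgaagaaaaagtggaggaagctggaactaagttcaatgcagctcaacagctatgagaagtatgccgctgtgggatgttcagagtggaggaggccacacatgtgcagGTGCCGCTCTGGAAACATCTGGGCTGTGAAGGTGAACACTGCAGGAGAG

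**Figure D1:**
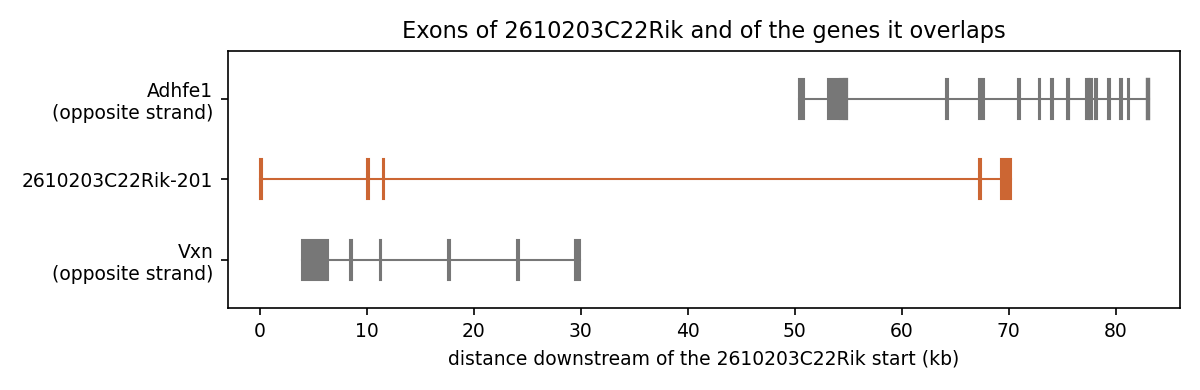
Exons (boxes) of the 5-exon transcript of 2610203C22Rik and, from all of their transcripts, of Adhfe1 and Vxn, placed by distance in kb downstream of that transcript's start; exons under 0.15 kb are drawn at 0.15 kb. Exon 4 of 2610203C22Rik, of 49 bases, lies under an Adhfe1 exon, and its last exon, of 947 bases, lies between Adhfe1 exons.

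Susd5 lies on chromosome 9 from 114057140 to 114098728 on the plus strand, with 1 transcript of 5 exons and 4083 bases. Its coding sequence is 1860 bases with the stop codon, or 45.6% of the transcript, and it encodes 619 amino acids. The last exon, of 3092 bases, makes up most of the transcript. The coding part of exons 1 and 2 is shown because it is the start of the protein-coding reading frame, and the capitals mark exon 2.
Susd5 coding part of exons 1 and 2: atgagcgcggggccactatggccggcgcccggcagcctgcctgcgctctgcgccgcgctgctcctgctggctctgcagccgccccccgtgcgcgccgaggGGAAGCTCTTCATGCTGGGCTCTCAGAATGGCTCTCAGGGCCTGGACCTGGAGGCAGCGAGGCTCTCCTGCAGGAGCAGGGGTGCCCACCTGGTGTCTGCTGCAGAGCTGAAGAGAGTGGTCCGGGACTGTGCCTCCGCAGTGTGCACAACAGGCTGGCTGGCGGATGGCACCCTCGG

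The level of 2610203C22Rik (FPKM, fragments mapped to a gene scaled by its exon length and by the size of the library) was 1.02, 0.739, 0.852 and 0.962 in WT_215, WT_116, WT_213 and WT_220. It was 3.03, 2.64 and 2.55 in KO_117, KO_214 and KO_218. The lowest Med23 CKO library was 2.51 times the highest control, so the groups did not overlap. The mean level was 0.893 ± 0.124 FPKM in control (SD, n = 4) and 2.74 ± 0.254 FPKM in Med23 CKO (SD, n = 3), a ratio of 3.07, and the difference in mean log2(FPKM + 1) was 0.98 (SE 0.18).

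Susd5 stood at 0.622, 0.527, 0.664 and 0.379 FPKM in WT_215, WT_116, WT_213 and WT_220, and at 1.44, 1.88 and 1.41 FPKM in KO_117, KO_214 and KO_218. The lowest Med23 CKO library was 2.12 times the highest control. The mean was 0.548 ± 0.127 FPKM in control (SD, n = 4) and 1.58 ± 0.267 FPKM in Med23 CKO (SD, n = 3), a ratio of 2.88 and a difference of 0.73 (SE 0.19) in mean log2(FPKM + 1). The order of libraries within the groups was not shared, since KO_117 was the highest Med23 CKO library for 2610203C22Rik and KO_214 for Susd5, and WT_220 was the lowest control for Susd5 but not for 2610203C22Rik. Among the mice numbered in the 200s alone, the differences of 2610203C22Rik and Susd5 were 0.89 and 0.77.

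**Figure D2:**
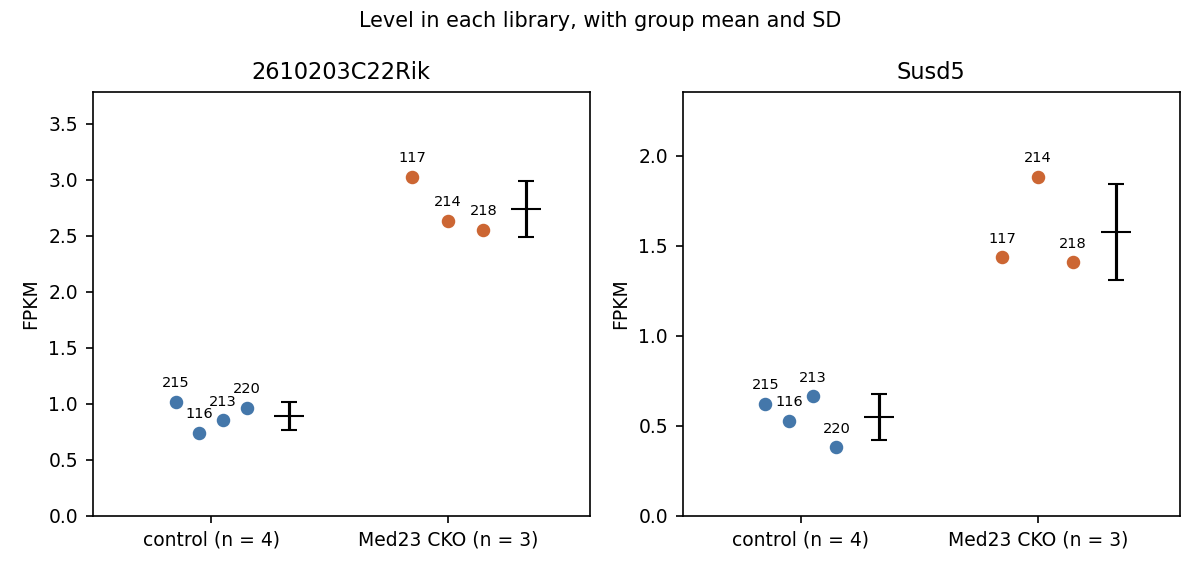
FPKM of 2610203C22Rik and Susd5 in each library (points, with mouse numbers) of the control (blue) and Med23 CKO (orange) groups, with the group mean and SD in black. The Med23 CKO libraries sit at 2.55 to 3.03 FPKM for 2610203C22Rik and at 1.41 to 1.88 FPKM for Susd5, above the highest control libraries at 1.02 and 0.664 FPKM.

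FPKM is a level per length, so the genes can be set beside each other: 2610203C22Rik was higher than Susd5 in each of the 7 libraries. Both were low among the 14151 genes with a mean of at least 0.5 FPKM, of which 13.0% had a lower mean than 2610203C22Rik and 7.05% a lower mean than Susd5. Neither gene depended on the Med23 CKO libraries to pass that minimum, since both control means exceed it, but the mean of Susd5 over all libraries, 0.989 FPKM, falls under a minimum of 1. The deposited values carry no read counts, so the number of fragments behind these low levels is unknown.

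The spread within groups was small for both genes. For 2610203C22Rik the highest library was 1.38 times the lowest among controls and 1.19 times among Med23 CKO, with coefficients of variation of 13.8% and 9.26%. For Susd5 the highest was 1.75 and 1.34 times the lowest, and the coefficients of variation were 23.1% and 16.9%. The pooled within-group SD in log2(FPKM + 1) was 0.0956 for 2610203C22Rik, with 1.33% of the genes tested showing a smaller one, and 0.131 for Susd5, with 4.58% smaller. A pseudocount of 1 compresses low values, and with 0.1 in its place these shares became 7.11% and 24.7%. Selection for groups that do not overlap favours genes of small spread, so these values are part of what the rule selected.

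Of the 14151 genes tested, 111 (0.784%) held the 3 Med23 CKO libraries above every control and 217 (1.53%) held them below every control. Ordered by the gap between the lowest Med23 CKO and the highest control library in log2(FPKM + 1), 2610203C22Rik came first of the 111 at 0.82 and Susd5 second at 0.53. By the difference in means they came 13th and 26th. Both genes were selected on these same values, so their places describe the selection and are not a result about them. At the limit of the rule, the gene just inside was 5930412G12Rik, with a lowest Med23 CKO level of 1.525 FPKM and a highest control level of 1.524 FPKM, and the gene just outside was Mir8104, listed at 0 in 6 libraries. Across all genes, limma gave 0 with an adjusted p under 0.05, while an unadjusted p under 0.05 went to 71 genes that were higher in Med23 CKO (0.502%) and 141 that were lower (0.996%). Scaling moved that balance, to 102 higher and 123 lower with quantile normalization and 99 higher and 119 lower with median centring.

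Med23 itself, the deleted gene, was also examined. Its level was 11.4, 10.3, 12.9 and 10.1 FPKM in WT_215, WT_116, WT_213 and WT_220. In the Med23 CKO libraries it was 9.97, 9.27 and 8.12 FPKM, in KO_117, KO_214 and KO_218. All Med23 CKO values lay below the control values, as in 1.53% of all genes tested. The difference of −0.26 (SE 0.18) in log2(FPKM + 1) did not pass the test (limma, unadjusted p = 0.175, adjusted p = 0.9999). The study itself reports the deletion from qRT-PCR of Med23 in neurospheres and from a western blot of hippocampus. A value per gene also counts reads from the part of Med23 outside the floxed exons.

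The libraries differed widely as whole profiles, and the values of 2610203C22Rik and Susd5 are set beside those differences as a description, since the rule that selected them fixes small differences within groups and larger ones between them. Over the 21 pairs of libraries, the root mean square difference across all genes tested ran from 0.407 to 1.30 in log2(FPKM + 1). The most different pair lay within the Med23 CKO group, KO_117 and KO_214, where 2610203C22Rik differed by 0.15 and Susd5 by 0.24. In that pair the median gene differed by 0.633.

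KO_117 had WT_220 as its nearest library, at 0.468. The median gene differed by 0.201 between them, where 2610203C22Rik differed by 1.04 and Susd5 by 0.82. Over the 12 pairs of a control and a Med23 CKO library, the share of genes that differed by less ran from 64.2% to 97.5% for 2610203C22Rik and from 56.2% to 95.3% for Susd5. For each of the 3 Med23 CKO libraries the nearest library was a control, WT_213 for KO_214 and KO_218. Over the 9 pairs within groups 2610203C22Rik differed by at most 0.21 and Susd5 by at most 0.27, and over the 12 pairs between groups by 0.82 to 1.21 and by 0.53 to 1.06.

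**Figure D3:**
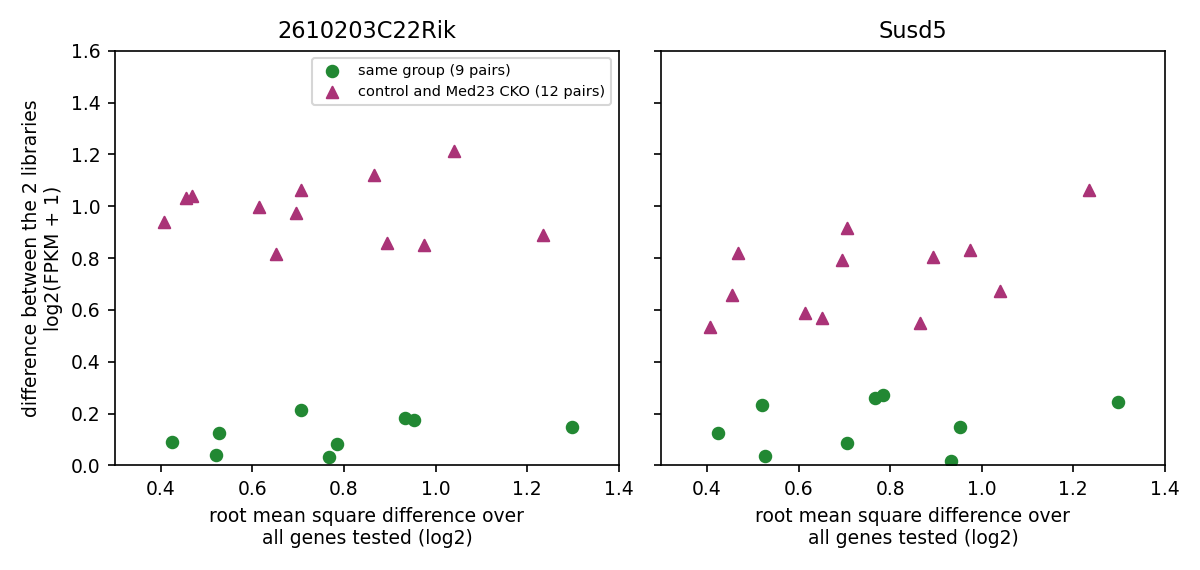
Difference in log2(FPKM + 1) of 2610203C22Rik and of Susd5 between 2 libraries (vertical axis) against the root mean square difference of those libraries over all genes tested (horizontal axis), for 9 pairs within a group (circles) and 12 pairs of a control and a Med23 CKO library (triangles). The pair farthest to the right, at 1.30, is KO_117 and KO_214, where the genes differ by 0.15 and 0.24.

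Marker levels of other cell types varied between libraries within each group. No test of a difference between the groups was run on the marker lists. The neural stem cell markers were present throughout, with Vim, an intermediate filament gene of neural stem cells, and Fabp7, a fatty acid binding protein of radial glia, above 200 FPKM in each library. Summed over 10 genes their level was 1759 to 3704 FPKM in control and 1684 to 3733 FPKM in Med23 CKO. Microglia and macrophage markers summed to 43.8 to 221 FPKM in control, and in Med23 CKO they ran from 45.1 FPKM in KO_117 to 827 FPKM in KO_214.

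Endothelial markers summed to 10.4 to 69.7 FPKM in control and 6.60 to 123 FPKM in Med23 CKO, and mural cell and fibroblast markers to 8.70 to 82.8 and 6.49 to 343 FPKM. Astrocyte markers ran from 554 to 820 and from 543 to 1243 FPKM, oligodendrocyte lineage markers from 2963 to 5458 and from 2284 to 3333 FPKM, and neuroblast and neuron markers from 78.3 to 94.5 and from 60.2 to 121 FPKM. The groups overlapped in each of the 7 summed lists, and 0 of their genes were at 0 in any library. Of the single markers, Mlc1, 1 of 12 for astrocytes, lay above the controls in all Med23 CKO libraries. Dlx2, 1 of 10 for neuroblasts and neurons, lay below the controls in all of them. Both were named after their values were seen, and the other 5 lists had 0 such genes. Over all genes tested, 0.784% lay above every control and 1.53% below, so no result about the markers is read from these counts. KO_117 and KO_214, at or near the lowest and at the highest level of the microglial, endothelial and mural lists, had levels of 2610203C22Rik of 3.03 and 2.64 FPKM and levels of Susd5 of 1.44 and 1.88 FPKM. In bulk RNA, fewer cells of a type and less RNA per cell cannot be told apart, and the cells that 2610203C22Rik and Susd5 came from were not tested.

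**Figure D4:**
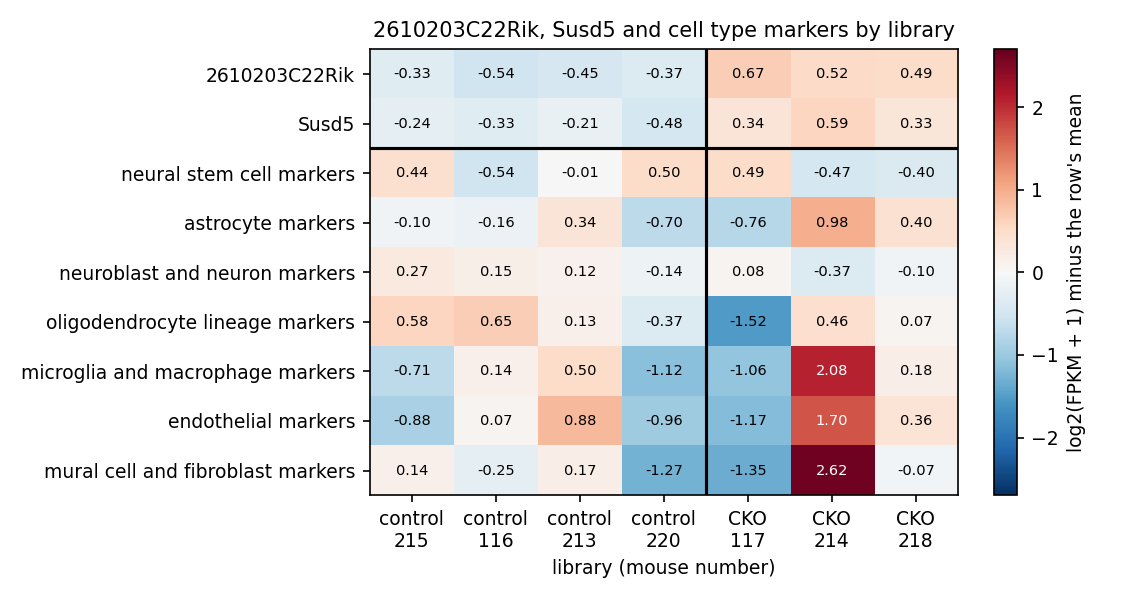
Level in each library (columns, control left of the line) minus the mean of its row, in log2(FPKM + 1), for 2610203C22Rik, Susd5 and the mean over the genes of each of 7 cell type marker lists (red higher, blue lower). The top rows separate the groups because both genes were selected for that. Of the marker lists, mural cell and fibroblast markers have the widest range, from −1.35 in KO_117 to 2.62 in KO_214.

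The groups overlapped in the genes around them, as in most genes. The 3 nearest genes in the table on each side of 2610203C22Rik and of Susd5 are 12 genes, of which 9 were tested. The groups overlapped in each of these 9, where over all genes 0.784% lay above every control and 1.53% below. Their median difference was −0.14 in log2(FPKM + 1), against −0.03 over all genes tested. An unadjusted p under 0.05 (limma) went to 0 of the 9, where 0.502% and 0.996% of all genes were called in the higher and lower direction. Counts of 0 in 9 are near these backgrounds.

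Adhfe1, a mitochondrial alcohol dehydrogenase gene that shares exon bases with 2610203C22Rik, was at 2.43, 3.47, 3.42 and 1.24 FPKM in WT_215, WT_116, WT_213 and WT_220. It was at 1.32, 6.66 and 4.57 FPKM in KO_117, KO_214 and KO_218. KO_117, the highest library for 2610203C22Rik, was thus the lowest Med23 CKO library for Adhfe1, and the difference of 0.40 (SE 0.45) did not pass the test (limma, unadjusted p = 0.403). Without KO_117 the difference of Adhfe1 was 0.90 (limma, unadjusted p = 0.0374), while that of 2610203C22Rik was 0.93.

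Vxn, listed under its older symbol 3110035E14Rik, was at 44.0, 20.2, 17.9 and 29.5 FPKM in the controls and at 24.5, 11.7 and 24.4 FPKM in Med23 CKO. The difference of −0.44 (SE 0.38) did not pass either (limma, unadjusted p = 0.288). The library kit named in the study's methods does not mark strand and the aligner ran at its defaults, so in shared exon bases reads from 2610203C22Rik and from the genes antisense to it cannot be told apart.

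Beyond these, Rrs1, a ribosome biogenesis gene, differed by −0.25, Mybl1, a MYB transcription factor, by −0.25 and Vcpip1, a deubiquitinase, by 0.17. Around Susd5, the ubiquitin ligase subunit gene Fbxl2 differed by 0.02, Ubp1, a transcription factor, by −0.14, Clasp2, a microtubule regulator, by −0.10 and 4930520O04Rik by −0.20. Sntg1, Bcl2a1c and 4930525D18Rik were too low to test.

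In the other genes with a link domain the groups overlapped too. Of the 13 listed, 9 were tested, 3 with a higher and 6 with a lower mean in Med23 CKO, with a median difference of −0.05 in log2(FPKM + 1). Of these 9, 0 had groups that did not overlap, against 0.784% above and 1.53% below over all genes. An unadjusted p under 0.05 went to 0 of them (limma, smallest 0.162), against 0.502% higher and 0.996% lower. Counts of 0 in 9 are near these backgrounds. Of the lecticans, hyaluronan-binding proteoglycans of brain matrix, Bcan, Ncan and Vcan were far above Susd5 in level, while Acan was too low to test at 0.030 to 0.247 FPKM in control and 0 to 0.195 FPKM in Med23 CKO. Bcan was at 76.5 to 219 FPKM in control and 77.9 to 291 FPKM in Med23 CKO, and Ncan at 63.6 to 231 and 72.6 to 262 FPKM.

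Vcan was at 13.7 to 25.8 FPKM in control and 14.6 to 25.6 FPKM in Med23 CKO. Hapln4, a link protein that ties hyaluronan to lecticans, had the smallest p of the list, with a difference of −0.53 (SE 0.34), and the link protein genes Hapln2 and Hapln3 differed by −0.13 and −0.38. Cd44, a hyaluronan receptor, was at 6.94 to 34.3 FPKM in control and 4.10 to 53.5 FPKM in Med23 CKO. Stab1, a scavenger receptor of macrophages and endothelium, differed by 0.98 (SE 0.88). It was at 33.3 FPKM in KO_214, the library with the highest microglial markers, and at 1.38 and 5.27 FPKM in KO_117 and KO_218. A link between Stab1 and those markers was not tested. The difference of Stab1 was −0.07 without KO_214 and 1.85 without KO_117 (limma, unadjusted p = 0.0447). Tnfaip6, a secreted hyaluronan-binding protein, was at 65.0, 14.1 and 64.9 FPKM in KO_117, KO_214 and KO_218 and at 31.5 to 38.8 FPKM in control, and without KO_214 its difference moved from 0.21 to 0.92 (limma, unadjusted p = 0.00127).

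Genes that make or break down hyaluronan gave a similar count. Of 10 genes, 8 were tested, with 4 means higher, 4 lower and a median difference of 0.04, and 0 had an unadjusted p under 0.05 (limma, smallest 0.32), where 0.502% of all genes were higher and 0.996% lower, so a count of 0 in 8 is near that background. The synthase gene Has2 differed by 0.29 (SE 0.28) and Ugdh, which makes a precursor of hyaluronan, by 0.15 (SE 0.30). Among the genes of breakdown, Hyal1 differed by 0.12, Hyal2 by −0.01, Hyal3 by −0.22, Cemip by −0.26 and Tmem2, now Cemip2, by 0.09, and the hyaluronan receptor gene Hmmr by −0.39 (SE 0.70). Has1, another synthase, was under the minimum level but had groups that did not overlap, at 0.178 to 0.429 FPKM in control and 0.447 to 0.655 FPKM in Med23 CKO. Over the genes tested 0.784% lay above every control, and no such share is given here for genes under the minimum. No result is read from Has1.

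**Figure D5:**
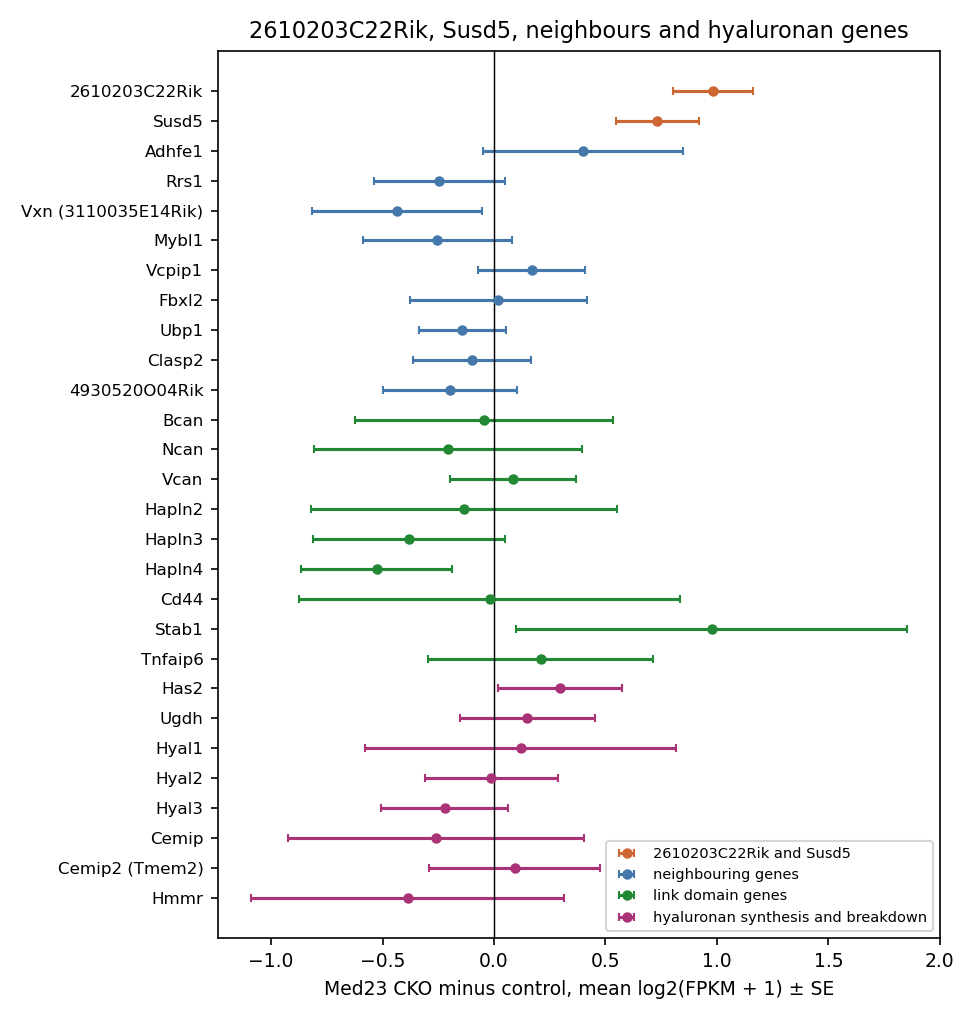
Difference in mean log2(FPKM + 1), Med23 CKO minus control, with its SE, for 2610203C22Rik and Susd5 (orange), the 9 neighbouring genes tested (blue), 9 link domain genes (green) and 8 genes of hyaluronan synthesis and breakdown (purple). 2610203C22Rik and Susd5 lie at 0.98 and 0.73, and Stab1 reaches 0.98 with an SE of 0.88.

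Among 31 genes with sushi domains, 22 were tested and their median difference was −0.05. Exactly 1 of them had an unadjusted p under 0.05, which was Gabbr1, a GABA-B receptor subunit gene, at 28.4 to 30.6 FPKM in control and 20.5 to 24.7 FPKM in Med23 CKO, a difference of −0.40 (SE 0.15) that did not pass adjustment (limma, unadjusted p = 0.0281, adjusted p = 0.9999). Leaving out 1 library at a time, or keeping the mice numbered in the 200s, put its unadjusted p between 0.0512 and 0.0778 in 7 of 8 cases. That is 1 of 22 lower against 0.996% of all genes. Il15ra, a cytokine receptor gene chosen after its values were seen, was the 1 of the 22 with groups that did not overlap in the direction of Susd5, at 1.03 to 2.92 FPKM in control and 3.17 to 4.61 FPKM in Med23 CKO, beside 0.784% of all genes. With Gabbr1, the most abundant genes of the list were Susd6, Cr1l and Sez6, which differed by 0.14 (SE 0.37), 0.22 (SE 0.25) and −0.82 (SE 0.80). Without KO_117 the difference of Sez6 was −1.79 (limma, unadjusted p = 0.0114), and without KO_214 it was −0.038.

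The 26 other long noncoding RNA genes included 22 that were tested, with 8 means higher and 14 lower and a median difference of −0.15. An unadjusted p under 0.05 was given to 0 of them (limma, smallest 0.0717), and with 0.502% of all genes called higher and 0.996% lower a count of 0 in 22 is near the background too. The 4 most abundant were far above 2610203C22Rik in level, and Malat1, Pantr1, Snhg1 and 2900097C17Rik differed by 0.06 (SE 0.36), −0.50 (SE 0.34), 0.14 (SE 0.21) and 0.04 (SE 0.15).

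The genes most like them over the 7 libraries were named by profile distance, the root mean square difference between log2(FPKM + 1) values after each gene's mean was taken off, among 13133 genes with a mean of at least 1 FPKM. Nearest to 2610203C22Rik were Dennd3 (0.231), a guanine nucleotide exchange factor gene, Lyn (0.232), a Src-family kinase, Bmper (0.232), a secreted BMP regulator, Prrx1 (0.237), a homeobox factor, and Oxct1 (0.248), an enzyme of ketone body use. The median gene lay at 0.614. Susd5, at 0.193, was nearer to 2610203C22Rik than all 5 of these. With a mean of 0.989 FPKM it lies outside the genes compared, and other genes under 1 FPKM were not ranked. The rule that selected both genes favours such likeness, so their nearness is part of what it selected.

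Nearest to Susd5 were Dennd3 (0.138), Acsl4 (0.143), an acyl-CoA ligase gene, Tgfbr1 (0.15), a TGF-beta receptor, Ap3s1 (0.167), an adaptor complex subunit, and Tspan7 (0.168), a tetraspanin, against a median of 0.518. From the side of Susd5, 19 genes were nearer than 2610203C22Rik. Dennd3 headed both lists, with levels of 0.691, 0.590, 1.09 and 0.867 FPKM in WT_215, WT_116, WT_213 and WT_220. Its levels were 1.74, 2.14 and 1.53 FPKM in KO_117, KO_214 and KO_218. All 9 genes named this way had Med23 CKO libraries above the controls, with differences of 0.44 to 0.81 in log2(FPKM + 1), a direction that choosing them for likeness fixes.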

How the data were processed

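RNA from primary hippocampal NSC cultures of 7 mice (4 control, 3 Med23 CKO) was sequenced. Per the labels and the study's methods, the authors checked reads with FastQC, aligned them to mm10 with TopHat at default settings and computed FPKM per gene with Cuffdiff, and the deposited table gives FPKM for each library. Libraries were made with the NEBNext Ultra RNA kit, which does not mark strand. The annotation is not given in the sources used here. Columns holding the authors' own comparison (group values, log2 fold change, test statistic, p and q) were not used. Columns without a sample numbered 0.

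Values were analysed as log2(FPKM + 1) for the 14151 of 24346 gene symbols with a mean FPKM of at least 0.5. Groups were compared with limma 3.58.1 (R 4.3.3, lmFit and eBayes with trend, two-sided, Benjamini-Hochberg adjustment over all genes tested). The fit was tested on simulated data with 200 changed genes and noise drawn separately for each gene. Such data lack the differences between whole libraries seen here, so that test does not show how the fit behaves on them. The lists hold genes fixed by function or cell type. The rule for named genes took 2610203C22Rik and Susd5, Med23, the 5 most similar genes of each, 3 neighbours per side, all link domain and hyaluronan genes, the most abundant genes of the other lists with any at an unadjusted p under 0.05, and the genes at the limit of the rule. Genes and lists were chosen with earlier results of these data known. Gene models came from GENCODE M21 and RefSeq on GRCm38, and bases shared between exons were counted without regard to strand.

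Depth per library is unknown, and the number of libraries limits the precision. Each control and Med23 CKO library is 1 mouse. Alternatives were a pseudocount of 0.1, no filter, a minimum mean of 1, quantile normalization, median centring, limma without trend, the mice numbered in the 200s alone, and leaving out each library.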

Additional observations from a re-analysis of the deposited data

Results flagged for a closer look

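Of 60 control groups of 4 libraries examined, 2 had 1 library far from the others by Dixon's test, where chance gives about 1 in 20. Hyal2, a hyaluronidase gene, was at 34.9 FPKM in WT_220 and at 18.98 to 21.6 FPKM in the other controls. Hyal3, a related gene, was at 1.69 FPKM in WT_116 and at 0.374 to 0.475 FPKM in the others. Neither 2610203C22Rik nor Susd5 had such a library among the controls, and groups of 3 were not examined.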

How the results depend on the processing

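No paired analysis was run, because each library is a separate mouse and the labels used give no litter. With a pseudocount of 0.1, the differences of 2610203C22Rik and Susd5 in log2 were 1.52 and 1.38 instead of 0.98 and 0.73, and without each library in turn they ran from 0.93 to 1.02 and from 0.65 to 0.78, while the number of genes with all Med23 CKO libraries above the controls went from 111 to between 150 (without WT_220) and 721 (without KO_117). By the gap, 2610203C22Rik then came between 1st and 8th and Susd5 between 2nd and 18th. Genes at an unadjusted p under 0.05 numbered 140 higher with no filter, 445 higher and 1374 lower in the mice numbered in the 200s, and 45 to 354 higher and 70 to 410 lower without each library, with the highest counts without KO_117. Without KO_218 there were 139 higher and 70 lower, without WT_215 there were 45 higher and 79 lower, and without WT_220 76 lower. Adjusted calls numbered 1, higher, without KO_214 (Snora64) or KO_218 (Gm38671), named after their values were seen, and 0 otherwise (limma).

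In the mice numbered in the 200s, list medians were −0.067 (hyaluronan), 0.41 (sushi), 0.010 (long noncoding RNA) and 0.10 (neighbours), and without each library they ran from −0.15 to 0.066 (link domain), −0.077 to 0.17 (hyaluronan) and −0.20 to 0.19 (sushi). Of 631 values of the 46 other genes, 548 stayed as they were, and 7 (Gabbr1) lost and 13 gained an unadjusted p under 0.05 (limma). Another 62 in 22 genes changed sign, and 1 moved, Dennd3, to 1.08 with a pseudocount of 0.1. Staying meant keeping direction and side of the threshold. Genes chosen for likeness or at the limit of the rule carry no p. For them it meant the same direction and a shift under the within-group SD. Gains in the mice numbered in the 200s were Sez6 −2.07, Ncan −1.15, Adhfe1 1.01, Hapln3 −1.01 and 4930520O04Rik −0.56. Without KO_117 they were Stab1 1.85, Sez6 −1.79, Adhfe1 0.90 and 4930520O04Rik −0.55, without KO_214 Cemip −1.18 and Tnfaip6 0.92, and Il15ra gained with 0.63 by limma without trend and 0.75 without WT_220. Without each library Sez6 ran from −1.79 to −0.038 and Hapln3 from −0.79 (without KO_117) to −0.065 (without KO_214). Sign changes in the mice numbered in the 200s were 2900097C17Rik −0.015, Cd44 1.23, Cemip 0.26, Clasp2 0.21, Hapln2 0.87, Has2 −0.028, Hyal3 0.10, Mybl1 0.10, Tmem2 −0.52, Tnfaip6 −0.17, Ugdh −0.11 and Vcan −0.18. Cd44 gave 0.059 and Hyal2 0.010 with quantile normalization, and they gave 0.0073 and 0.013 with median centring. Where leaving out a library changed the sign, the ranges were 2900097C17Rik −0.051 to 0.086, 4930520O04Rik −0.55 to 0.030, Bcan −0.65 to 0.29, Cd44 −0.75 to 0.96, Cemip −1.18 to 0.24, Clasp2 −0.29 to 0.075, Fbxl2 −0.27 to 0.28, Hapln2 −0.72 to 0.55, Hmmr −1.01 to 0.48, Hyal1 −0.36 to 0.75. They were also Hyal2 −0.29 to 0.19, Hyal3 −0.32 to 0.0043, Malat1 −0.16 to 0.39, Ncan −0.81 to 0.11, Stab1 −0.074 to 1.85, Susd6 −0.21 to 0.56, Tmem2 −0.28 to 0.29, Tnfaip6 −0.15 to 0.92, Ugdh −0.042 to 0.38, Vcan −0.079 to 0.33. The cause of these changes was not tested, and none of the genes that changed sign had passed the test.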
